A study of Caenorhabditis elegans with 12 samples.

Results

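Tight clusters of peaks of the same protein were examined in the binding maps of 6 chromatin proteins from *Caenorhabditis elegans* L3 larvae, the third larval stage. In each peak list, neighboring peaks were chained into a cluster where the gap, from the end of one peak to the start of the next, was below 1000 bp. Members were thus chosen by the measured gaps alone. In all, 982 of 7558 peaks met this rule and formed 431 clusters, and the other 6576 peaks are called single peaks. Of the clusters, 348 held 2 peaks, 62 held 3, 9 held 4, 9 held 5, 2 held 6 and 1 held 7.

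Binding was mapped by ChIP-seq, which sequences the DNA that an antibody against a protein pulls down from cross-linked chromatin. All 12 samples were wild-type N2 animals without further treatment, 2 replicates for each protein. The study used the maps to ask whether binding sites of a protein contact each other more often than their surroundings. Each deposited list merges the replicates and gives positions in ce10 with no height, read count or P-value. Depth and the error between replicates are therefore unknown, and p-values cover counting error over loci only. Larvae were used whole, so the peaks of a cluster need not be bound in the same cells.

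BLMP-1 is a zinc finger transcription factor of the Blimp family with roles in the development of the epidermis and gonad. JMJD-2 removes methyl groups from histone H3, SIN-3 is the scaffold of histone deacetylase complexes, and ZFP-1 is a PHD finger protein of the AF10 family. SCC-1 is a subunit of the cohesin ring that holds sister chromatids together and forms chromatin loops, and TOP-2 is a type II topoisomerase that passes one DNA duplex through another. The genome of *C. elegans* is compact, with promoters and enhancers often close together, and regulators are commonly found at several neighboring elements of the same gene.

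TOP-2 had the fewest peaks and the largest clustered share. Of its 464 peaks, 100 (21.6%) lay in 43 clusters. ZFP-1, with the longest list, had 355 of 2466 peaks (14.4%) in 156 clusters, and BLMP-1 had 131 of 982 (13.3%) in 57. The cohesin subunit SCC-1 had 136 of 1115 peaks (12.2%) in 59 clusters, and SIN-3 had 200 of 1715 (11.7%) in 89. JMJD-2 had the smallest share, with 60 of 816 peaks (7.35%) in 27 clusters. The order of the shares did not follow the order of peak density, which was 4.63 peaks per Mb for TOP-2, 8.14 for JMJD-2, 9.80 for BLMP-1, 11.1 for SCC-1, 17.1 for SIN-3 and 24.6 for ZFP-1. The rule sets these shares, so they were not tested.

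Pairs made up most clusters of every protein. Pairs numbered 45 of 57 clusters for BLMP-1, 23 of 27 for JMJD-2, 47 of 59 for SCC-1, 74 of 89 for SIN-3, 31 of 43 for TOP-2 and 128 of 156 for ZFP-1. Clusters of 4 or more peaks were few, with 9 for ZFP-1, 4 for SIN-3, 3 each for BLMP-1 and SCC-1, and 1 each for JMJD-2 and TOP-2. TOP-2 had 11 clusters of 3 peaks among its 43.

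The cluster with the most peaks was a ZFP-1 cluster on Chr II (3956244–3961540), with 7 peaks over 5297 bp at gaps of 242 to 902 bp, none of which met a peak of another protein. A SCC-1 cluster on Chr IV (2257914–2262038) held 6 peaks over 4125 bp, and these peaks also met no peak of another protein. On Chr II, 6 SIN-3 peaks spanned 3117 bp (694407–697523), and the last 2 of them met SCC-1 peaks. The largest JMJD-2 cluster had 5 peaks over 3153 bp on Chr I (9380036–9383188), with ZFP-1 at its first peak and SIN-3 at its last. TOP-2 reached 5 peaks over 2791 bp on Chr III (9409940–9412730), and none of these peaks met a peak of another protein.

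BLMP-1 clusters differed in form from the others because their peaks were broad. The median width of a clustered BLMP-1 peak was 488 bp, against 325 bp for single BLMP-1 peaks. In the other 5 lists the median lay between 224 and 242 bp for clustered peaks and between 235 and 252 bp for single peaks. Peaks wider than 1 kb were 12 of the clustered BLMP-1 peaks (9.16%) and 36 of the single ones (4.23%). They occurred in 7 BLMP-1 clusters. The median BLMP-1 cluster spanned 1613 bp, of which peaks covered 70.8% over all its clusters, compared with medians of 920 bp for SIN-3, 934 bp for TOP-2, 959 bp for JMJD-2, 1052 bp for SCC-1 and 1152.5 bp for ZFP-1 and a covered share between 45.2% and 51.4%. The longest cluster of all was a BLMP-1 pair of 12202 bp at the right end of Chr I (15060222–15072423), where a peak of 11192 bp was followed by one of 709 bp. Width enters the gap, and the BLMP-1 peaks were called with another program, so width and protein cannot be told apart from the caller here.

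The gaps within clusters were spread differently by protein. Their median was 293 bp for SIN-3 (quartiles 210 and 522 bp, 111 gaps) and 352 bp for JMJD-2 (197 and 702 bp, 33 gaps). It was 443 bp for TOP-2 (335 and 479 bp, 57 gaps), 446.5 bp for BLMP-1 (277 and 697.5 bp, 74 gaps), 468 bp for SCC-1 (226 and 720 bp, 77 gaps) and 569 bp for ZFP-1 (251.5 and 760.5 bp, 199 gaps). The TOP-2 quartiles were thus the closest together. Gaps below 500 bp made up 80.7% of the TOP-2 gaps and 73.0% of the SIN-3 gaps, and between 46.7% and 63.6% in the other lists. The smallest gap was 30 bp, between SIN-3 peaks on Chr III (3896286–3896809), followed by 32 bp for SCC-1 on Chr I (6647948–6648330) and 48 bp for TOP-2 on the X Chromosome (2993640–2993984). Smallest gaps in the remaining lists were 60 bp for ZFP-1, 66 bp for BLMP-1 and 125 bp for JMJD-2.

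**Figure D1:**
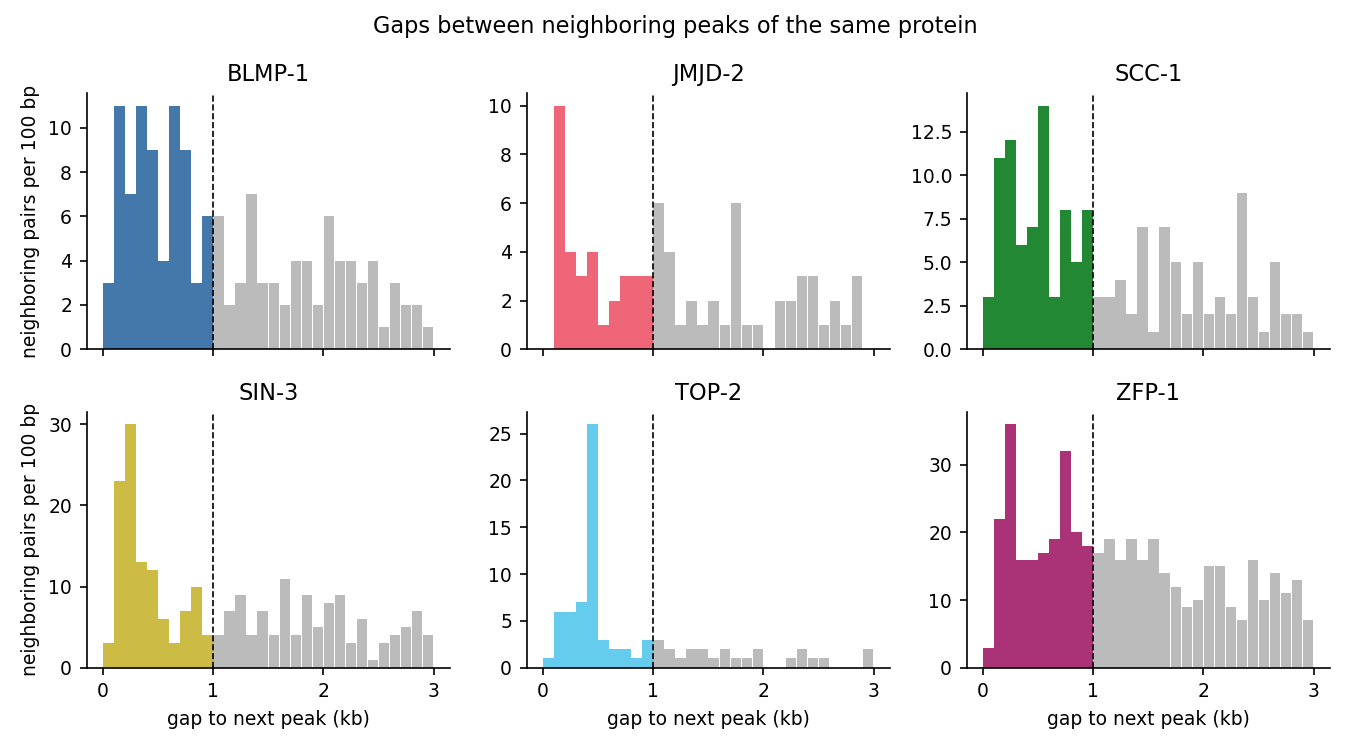
Gaps between neighboring peaks of the same protein up to 3 kb, in bins of 100 bp (x axis, gap in kb; y axis, number of neighboring pairs), with clustered neighbors in color left of the dashed limit and more distant neighbors in gray. SIN-3 has its highest bins between 100 and 300 bp and TOP-2 a single high bin of 26 pairs at 400 to 499 bp, and ZFP-1 pairs continue across the limit with 18 pairs just inside and 17 just outside.

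The limit of 1000 bp did not fall in a natural break for every list. For ZFP-1, 199 neighboring pairs had a gap under 1 kb, 151 a gap of 1 to 2 kb and 117 a gap of 2 to 3 kb. For TOP-2 the same counts were 57, 17 and 7, so TOP-2 neighbors fell off most beyond the limit. BLMP-1 had 74, 36 and 30 such pairs, JMJD-2 33, 25 and 17, SCC-1 77, 39 and 30, and SIN-3 111, 64 and 50. Just inside the limit, the widest gaps within clusters were 963 bp for BLMP-1 on Chr I (7753239–7754901), 986 bp for JMJD-2 on Chr I (9381734–9383188), 987 bp for SCC-1 on Chr III (8441283–8442739), 917 bp for SIN-3 on the X Chromosome (17544364–17545748), 959 bp for TOP-2 on Chr III (5787275–5788714) and 985 bp for ZFP-1 on Chr I (7595745–7597237). Just outside it, the narrowest gaps were 1005 bp for BLMP-1 (X, 6513587–6515674), 1005 bp for JMJD-2 (I, 7867193–7868686), 1015 bp for SCC-1 (IV, 8467475–8469048), 1009 bp for SIN-3 (III, 1531866–1533396), 1001 bp for TOP-2 (III, 701762–703239) and 1014 bp for ZFP-1 (III, 13061031–13062541).

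Clustered TOP-2 peaks often lay at about the same distance from each other. The distance between the midpoints of neighboring TOP-2 peaks had a median of 676 bp with quartiles of 540 and 710 bp, and 29 of 57 distances (50.9%) fell between 650 and 750 bp. In the same window fell 7 of 74 BLMP-1 distances (9.46%), 4 of 33 JMJD-2 distances (12.1%), 5 of 77 SCC-1 distances (6.49%), 14 of 111 SIN-3 distances (12.6%) and 16 of 199 ZFP-1 distances (8.04%). The window was chosen after the distances had been seen, and since gaps define the clusters no test was made. Both pairs and larger TOP-2 clusters contributed, with 13 of 31 distances in pairs and 16 of 26 in clusters of 3 or more.

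The TOP-2 clusters with such a distance numbered 24 and lay on all 6 chromosomes, with 7 on III, 6 on IV, 4 on I, 3 on the X Chromosome and 2 each on II and V. Of the 24, 4 had a peak of another protein, compared with 7 of all 43 TOP-2 clusters. In 6 of the 11 TOP-2 clusters of 3 peaks, both distances lay between 600 and 800 bp. This was the case for 1 of 11 SIN-3 clusters of 3 peaks. It was the case for none of the 9 BLMP-1, 3 JMJD-2, 9 SCC-1 and 19 ZFP-1 clusters of 3. Examples were the TOP-2 clusters on Chr IV (8664316–8665882 and 13968834–13970436), Chr V (19566490–19568113) and the X Chromosome (5634491–5636059), which spanned 1567, 1603, 1624 and 1569 bp. Peaks of these 4 clusters were 210 to 250 bp wide and their gaps 404 to 494 bp.

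**Figure D2:**
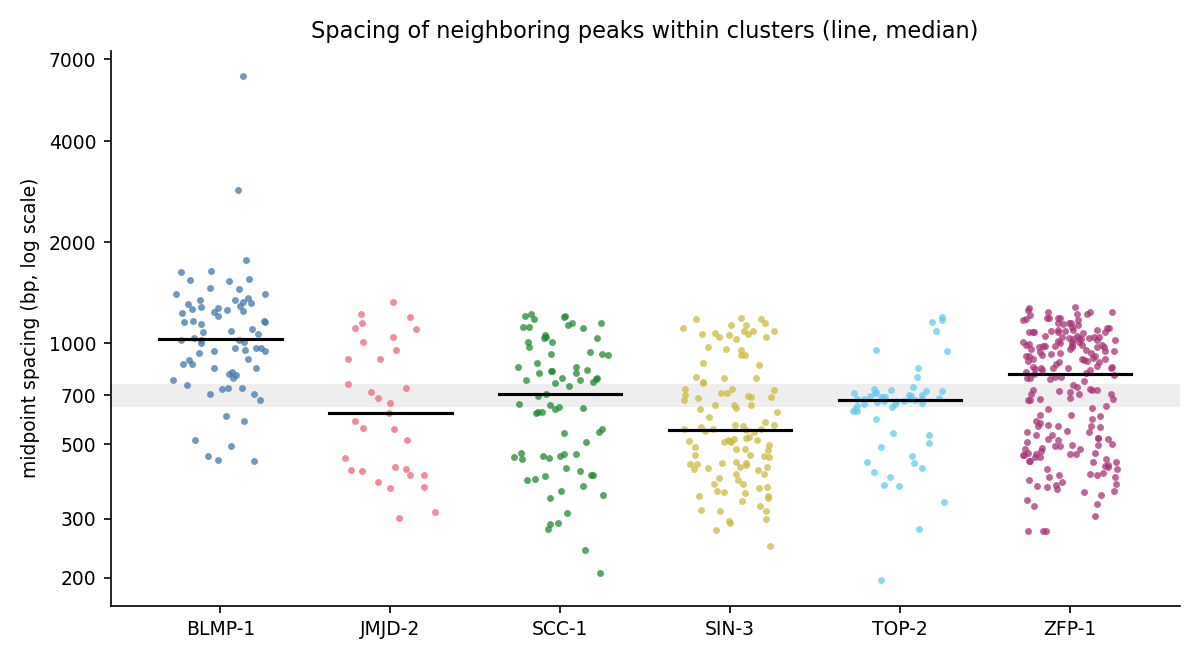
Distance between the midpoints of neighboring peaks within clusters (y axis, bp on a log scale) for each protein (x axis), with each point a neighboring pair, a line at the median and gray shading from 650 to 750 bp. TOP-2 distances gather in the shaded band, where 29 of 57 lie, and BLMP-1 distances are the longest, with a median of 1029.5 bp.

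In the other lists midpoint distances were broad. Medians were 1029.5 bp for BLMP-1 (quartiles 825 and 1287 bp), 618 bp for JMJD-2 (418 and 955 bp), 703.5 bp for SCC-1 (458.5 and 927.5 bp), 552 bp for SIN-3 (427.5 and 764 bp) and 811.5 bp for ZFP-1 (499 and 1006.5 bp). The SCC-1 median was near that of TOP-2, but its quartiles lay much farther apart.

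Clusters were not spread evenly along the chromosomes. Autosomes of *C. elegans* have gene-rich centers and distal arms that carry more repeats and more methylation of histone H3 lysine 9. Here each autosome was divided into 3 equal parts, of which the 2 outer ones were called distal, and its end was set at the last peak of any list. SIN-3 clusters were mostly distal, at 83.1% of the 83 autosomal clusters (95% interval 73.3% to 90.5%, exact Clopper-Pearson), against 63.2% of the 1384 autosomal single SIN-3 peaks (60.5% to 65.7%). Put the other way, 15.4% of distal and 5.38% of central SIN-3 peaks were clustered, with densities of 18.8 and 19.6 peaks per Mb. Chr III contributed most, where 20 of the 89 SIN-3 clusters lay in the left distal part, compared with 4 in the central and 3 in the right distal part. Density of SIN-3 peaks in these parts of Chr III was 31.8, 27.2 and 25.5 per Mb. Since dense stretches give more close neighbors, position was described and not tested.

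In the BLMP-1 and ZFP-1 lists a larger share of peaks was clustered in the central parts, although 24 of 47 autosomal BLMP-1 clusters and 68 of 126 autosomal ZFP-1 clusters were distal. Of the autosomal BLMP-1 peaks, 11.3% of distal and 17.0% of central ones were clustered, with densities of 8.38 and 11.5 peaks per Mb. For ZFP-1 it was 12.8% and 17.1%, with 22.1 and 28.7 peaks per Mb. In these 2 lists peak density was higher in the part where the clustered share was higher. SCC-1 (11.9% distal, 13.2% central), JMJD-2 (5.88% and 6.58%) and TOP-2 (22.9% and 23.5%) differed less between the parts. Their distal and central densities were 12.2 and 12.7 peaks per Mb for SCC-1, 7.73 and 8.84 for JMJD-2 and 4.45 and 3.71 for TOP-2. The part of density in the clustered shares was not tested.

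**Figure D3:**
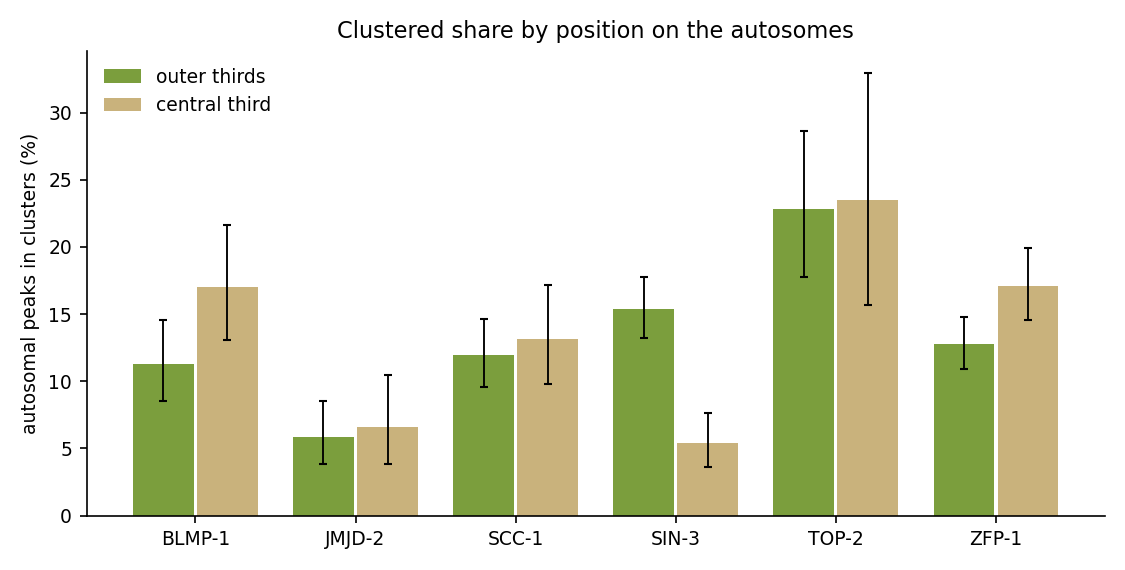
Share of autosomal peaks that were clustered (y axis, percent) in the distal parts (green) and the central part (tan) for each protein (x axis), with exact 95% intervals over peaks. SIN-3 stands at 15.4% in the distal parts and 5.38% in the center, the other way round from BLMP-1 and ZFP-1.

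By chromosome, the clustered share of TOP-2 peaks was 33.8% on IV, 28.4% on III, 20.9% on I, 19.0% on II, 17.1% on X and 8.33% on V. The V value rests on 5 clustered peaks of 60. JMJD-2 peaks were clustered at 12.9% on IV and 12.8% on X and at 3.23% to 6.11% on the other chromosomes. Of the 27 JMJD-2 clusters, 9 lay on the X Chromosome (interval 16.5% to 54.0%), against 17.1% (14.4% to 19.9%) of the single JMJD-2 peaks. In the other lists the X Chromosome held a like share of clusters and single peaks, with 17.5% and 21.0% for BLMP-1, 6.78% and 8.68% for SCC-1, 6.74% and 8.65% for SIN-3, 20.9% and 26.6% for TOP-2 and 19.2% and 18.8% for ZFP-1. Exact intervals of the 2 shares overlapped in each of these lists, and also for JMJD-2.

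Next, the presence of other proteins was compared between clusters and single peaks. The lists of the other proteins were not used to choose members, so this comparison could be tested. Each cluster was counted once, by its first peak in coordinate order, and a peak counted as shared where at least 1 bp lay in a peak of another list. Two-sided Fisher's exact tests were used, and p-values were adjusted over the 6 proteins by the Benjamini-Hochberg method.

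First peaks of SCC-1, BLMP-1 and SIN-3 clusters met other proteins less often than single peaks did. In these counts a cluster was shared only where its first peak was, and counts over any peak are given further below. For SCC-1, 20 of 59 clusters (33.9%) and 591 of 979 single peaks (60.4%) were shared, with 56.8% over the whole list (odds ratio 0.337, 95% interval 0.183 to 0.602, adjusted p = 0.00061, Fisher's exact test). For BLMP-1 it was 9 of 57 clusters (15.8%) and 290 of 851 single peaks (34.1%), with 32.3% over the list (odds ratio 0.363, 0.154 to 0.762, adjusted p = 0.00698, Fisher's exact test). For SIN-3, 26 of 89 clusters (29.2%) and 686 of 1515 single peaks (45.3%) were shared, with 43.8% over the list (odds ratio 0.499, 0.30 to 0.810, adjusted p = 0.00698, Fisher's exact test). Over all clustered peaks the shares were 30.9% for SCC-1, 20.6% for BLMP-1 and 33.0% for SIN-3. The tests and intervals treat clusters as independent, although some lay close together. Examples without another protein were SIN-3 clusters on Chr III (starts 1180092, 1182632 and 1185037) and SCC-1 clusters on Chr IV (2704593, 2711355 and 2716098). Among close SCC-1 clusters on Chr V (7913209, 7919538 and 7922954), the first met JMJD-2 and SIN-3. The left distal part of Chr III held 20 of the 89 SIN-3 clusters, and its part in the SIN-3 difference was not tested.

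ZFP-1 went the other way. At the first peak, 56 of 156 ZFP-1 clusters (35.9%) met another protein, against 541 of 2111 single ZFP-1 peaks (25.6%). The odds ratio was 1.62 (1.13 to 2.31, adjusted p = 0.00932, Fisher's exact test), with 26.6% shared over the list. JMJD-2 and TOP-2 did not pass the threshold. In the JMJD-2 list 13 of 27 clusters (48.1%) and 467 of 756 single peaks (61.8%) were shared, with 60.5% over the list (odds ratio 0.575, 0.245 to 1.34, adjusted p = 0.164, Fisher's exact test). In the TOP-2 list 3 of 43 clusters (6.98%) and 61 of 364 single peaks (16.8%) were shared, with 14.9% over the list (odds ratio 0.373, 0.0716 to 1.23, adjusted p = 0.145, Fisher's exact test). The intervals of both allow either direction. Differences between proteins in this effect were not tested.

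These calls depend in part on which peak stands for a cluster. With the last peak instead of the first, the shares of clusters were 22.8% for BLMP-1 (adjusted p = 0.251), 41.6% for SIN-3 (adjusted p = 0.616) and 26.9% for ZFP-1 (adjusted p = 0.705, Fisher's exact test), and these 3 no longer passed, while SCC-1 did. BLMP-1 was also lost under 1 further alternative, and SIN-3 and ZFP-1 under 2 each. SCC-1 no longer passed where sharing was defined by midpoints within 500 bp, with 49.2% of clusters and 63.6% of single peaks shared (adjusted p = 0.0731, Fisher's exact test).

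**Figure D4:**
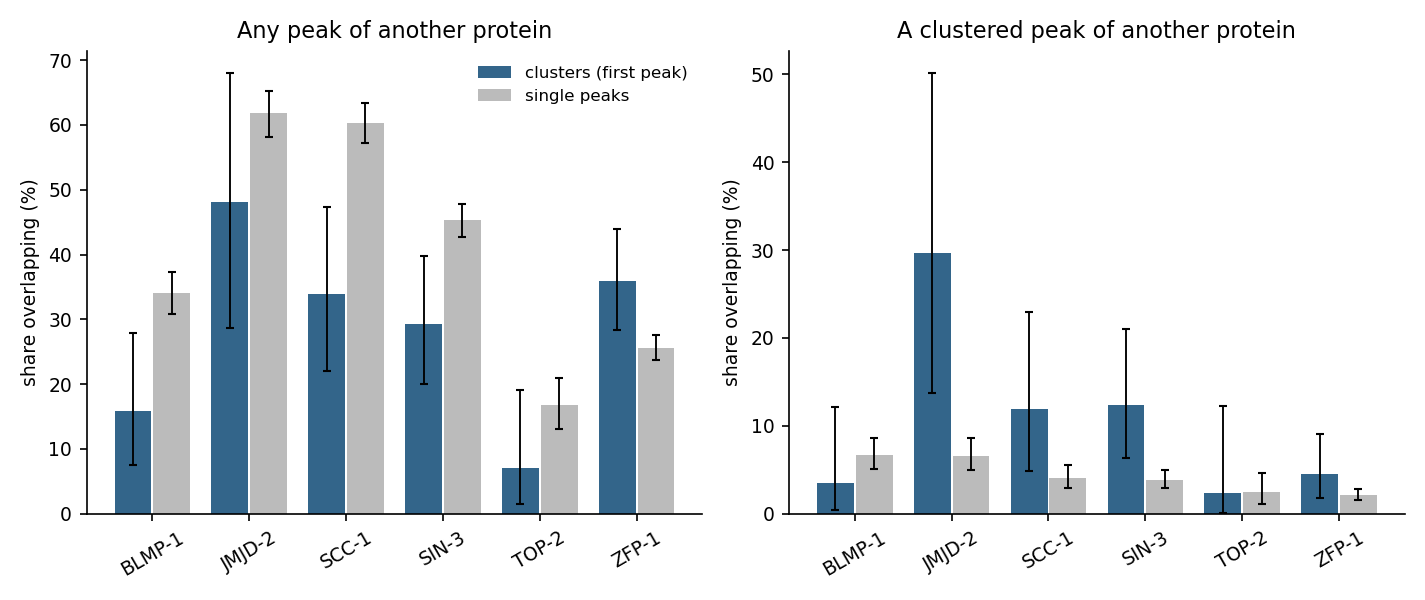
Share of clusters, by their first peak (blue), and of single peaks (gray) that overlapped a peak of another protein (left panel) or a clustered peak of another protein (right panel), in percent (y axis) for each protein (x axis), with exact 95% intervals over loci. In the left panel the cluster bars of BLMP-1, SCC-1 and SIN-3 lie below their single peaks and that of ZFP-1 above, and in the right panel the JMJD-2 clusters stand at 29.6% against 6.61%.

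Some pairs held one peak that met another protein and one that did not. In pairs, both peaks met another protein in 4 of 45 BLMP-1, 8 of 23 JMJD-2, 8 of 47 SCC-1, 14 of 74 SIN-3, 1 of 31 TOP-2 and 13 of 128 ZFP-1 pairs. One peak only was shared in 10 BLMP-1, 8 JMJD-2, 20 SCC-1, 31 SIN-3, 3 TOP-2 and 54 ZFP-1 pairs. Neither was shared in 31, 7, 19, 29, 27 and 61 pairs of the same proteins. Pairs shared at one peak were thus more common than pairs shared at both in every list but that of JMJD-2. Where few peaks are shared, this order arises even if the peaks of a pair are shared independently, and it was not tested. Which proteins were met was not compared between the peaks of a pair. Counting a cluster as shared where any of its peaks was, 19 of 57 BLMP-1, 18 of 27 JMJD-2, 33 of 59 SCC-1, 51 of 89 SIN-3, 7 of 43 TOP-2 and 87 of 156 ZFP-1 clusters met another protein. A cluster has more peaks than a single site and so more chances to be shared, and these counts were not set against single peaks.

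Of the single proteins, BLMP-1 stood out at ZFP-1 clusters. A BLMP-1 peak overlapped the first peak of 33 of 156 ZFP-1 clusters (21.2%) and 202 of 2111 single ZFP-1 peaks (9.57%; odds ratio 2.53, 1.63 to 3.86, adjusted p = 0.000939, Fisher's exact test with adjustment over 30 ordered pairs of proteins). Over any peak of the cluster, 52 of 156 ZFP-1 clusters had BLMP-1. The BLMP-1 peaks there were broad, with a median width of 434 bp for the 57 at clustered ZFP-1 peaks, against 341 bp for the 201 at single ZFP-1 peaks and 336 bp over the whole BLMP-1 list. Of the 57, 9 covered 2 or more clustered ZFP-1 peaks, and 9 were themselves clustered. BLMP-1 peaks also reached into 49 of the 199 gaps between clustered ZFP-1 peaks, and a BLMP-1 midpoint lay in 12 of the 199. A wider peak overlaps more neighbors, and the part of BLMP-1 width in this result was not tested. Of the 11 alternatives, the call was lost only with the last peak of each cluster, where 15.4% of clusters had BLMP-1 (adjusted p = 0.118, Fisher's exact test).

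The reverse was not seen at the first peaks of BLMP-1 clusters. ZFP-1 met the first peak of 9 of 57 BLMP-1 clusters (15.8%) and 232 of 851 single BLMP-1 peaks (27.3%, adjusted p = 0.163, Fisher's exact test). Over any peak of the cluster, 19 of 57 BLMP-1 clusters had ZFP-1. No first peak of the 57 BLMP-1 clusters met JMJD-2, SCC-1 or SIN-3, which allows a share of up to 6.27%, whereas 7.40%, 7.29% and 9.40% of single BLMP-1 peaks did (adjusted p = 0.103, 0.103 and 0.0520, Fisher's exact test). Over all 131 clustered BLMP-1 peaks there were 1 overlap with JMJD-2, 1 with SCC-1 and 0 with SIN-3. Counting every clustered peak as a unit, these differences passed the threshold, but peaks of a cluster share a locus and are not independent. That count was therefore not taken as a call. ZFP-1 was present at 26 of the 27 shared clustered BLMP-1 peaks and at 232 of the 290 shared single ones. Over all peaks, it met 19.8% of clustered and 27.3% of single BLMP-1 peaks.

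First peaks of SIN-3 clusters met SCC-1 less often than single SIN-3 peaks did. SCC-1 lay at the first peak of 13 of 89 SIN-3 clusters (14.6%) and at 441 of 1515 single SIN-3 peaks (29.1%; odds ratio 0.417, 0.210 to 0.766, adjusted p = 0.0354, Fisher's exact test). This call was lost under 5 of the 11 alternatives, among them the last peak of each cluster (23.6%, adjusted p = 0.593, Fisher's exact test). From the SCC-1 side, SIN-3 lay at 16 of 59 clusters (27.1%) and at 446 of 979 single peaks (45.6%, adjusted p = 0.0520), ZFP-1 at 5.08% and 16.5% (adjusted p = 0.0813) and JMJD-2 at 15.3% and 27.8% (adjusted p = 0.117, Fisher's exact test). None of these passed over the 30 tests. SIN-3 peaks touched 25 of the 77 gaps between clustered SCC-1 peaks by at least 1 bp, and a SIN-3 midpoint lay in 9 of the 77.

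First peaks of JMJD-2, SIN-3 and SCC-1 clusters more often met a clustered peak of another protein than single peaks did. The gap rule that chose the members also sets which peaks of the other lists are clustered, so this outcome is not independent of the rule. A clustered peak of another protein lay at 8 of 27 JMJD-2 clusters (29.6%) and at 50 of 756 single JMJD-2 peaks (6.61%; odds ratio 5.92, 2.13 to 15.0, adjusted p = 0.00245, Fisher's exact test over the 6 proteins). It lay at 11 of 89 SIN-3 clusters (12.4%) and 3.83% of single SIN-3 peaks (odds ratio 3.54, 1.61 to 7.16, adjusted p = 0.00313, Fisher's exact test) and at 7 of 59 SCC-1 clusters (11.9%) and 4.09% of single SCC-1 peaks (odds ratio 3.15, 1.14 to 7.59, adjusted p = 0.0279). For ZFP-1 the shares were 4.49% and 2.13% (adjusted p = 0.129), for BLMP-1 3.51% and 6.70% (adjusted p = 0.690) and for TOP-2 2.33% and 2.47% (adjusted p = 1, Fisher's exact test). The JMJD-2 call held under all 11 alternatives, the SIN-3 call was lost with gaps under 500 bp, and the SCC-1 call rests on 7 clusters and was lost under 3 alternatives. A protein that meets 2 peaks of a cluster tends to be clustered there by the same gap rule, which cannot happen at a single peak. Over any peak of a cluster, clustered SIN-3 peaks met 4 JMJD-2 and 8 SCC-1 clusters, and SIN-3 met 2 or more peaks in 4 JMJD-2 and 5 SCC-1 clusters. The part of this link in the odds ratios was not tested. All 11 alternatives keep the link, so they cannot separate it from the result.

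Merged across proteins, cluster spans formed 406 loci, of which 382 had clusters of 1 protein, 23 of 2 proteins and 1 of 3. The 24 shared loci (5.91%) joined SCC-1 with SIN-3 at 7 loci, BLMP-1 with ZFP-1 at 5, JMJD-2 with ZFP-1 at 4, JMJD-2 with SIN-3 at 3, SIN-3 with ZFP-1 at 2, and JMJD-2 with SCC-1 and TOP-2 with ZFP-1 at 1 each. The locus with 3 proteins lay on Chr II (10033542–10034896), where JMJD-2, SCC-1 and SIN-3 each had 2 peaks. Their left peaks (10033542–10033795, 10033549–10033780 and 10033604–10033815) and right peaks (10034689–10034873, 10034695–10034896 and 10034699–10034893) lay nearly on top of each other.

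The other 23 shared loci had clusters of 2 proteins each, and the 4 with the most clustered peaks are named, with 10, 9, 7 and 7 of them. Their clusters coincided to different degrees. On the X Chromosome (15272731–15278249), 5 broad BLMP-1 peaks and 5 ZFP-1 peaks lay along 5519 bp. A ZFP-1 peak fell within each of the 3 inner BLMP-1 peaks, while the outer BLMP-1 peaks, of 530 and 1022 bp, held none. Single JMJD-2 (15275276–15275538) and TOP-2 (15276041–15276263) peaks lay in or at the edge of the broadest BLMP-1 peak of 1394 bp.

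On Chr II (694407–697910), a chain of 6 SIN-3 peaks ended in a chain of 3 SCC-1 peaks, with overlap at the last 2 SIN-3 peaks only. At the Chr I locus (9380036–9383188), 5 JMJD-2 and 2 ZFP-1 peaks overlapped at the first JMJD-2 peak, and a single SIN-3 peak met the last. On Chr III (8799742–8802700), 2 SIN-3 peaks coincided with the first 2 of 5 ZFP-1 peaks (8799742–8800011 and 8800246–8800522), and a single BLMP-1 peak of 885 bp (8801417–8802301) covered a later ZFP-1 peak (8801967–8802216).

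**Figure D5:**
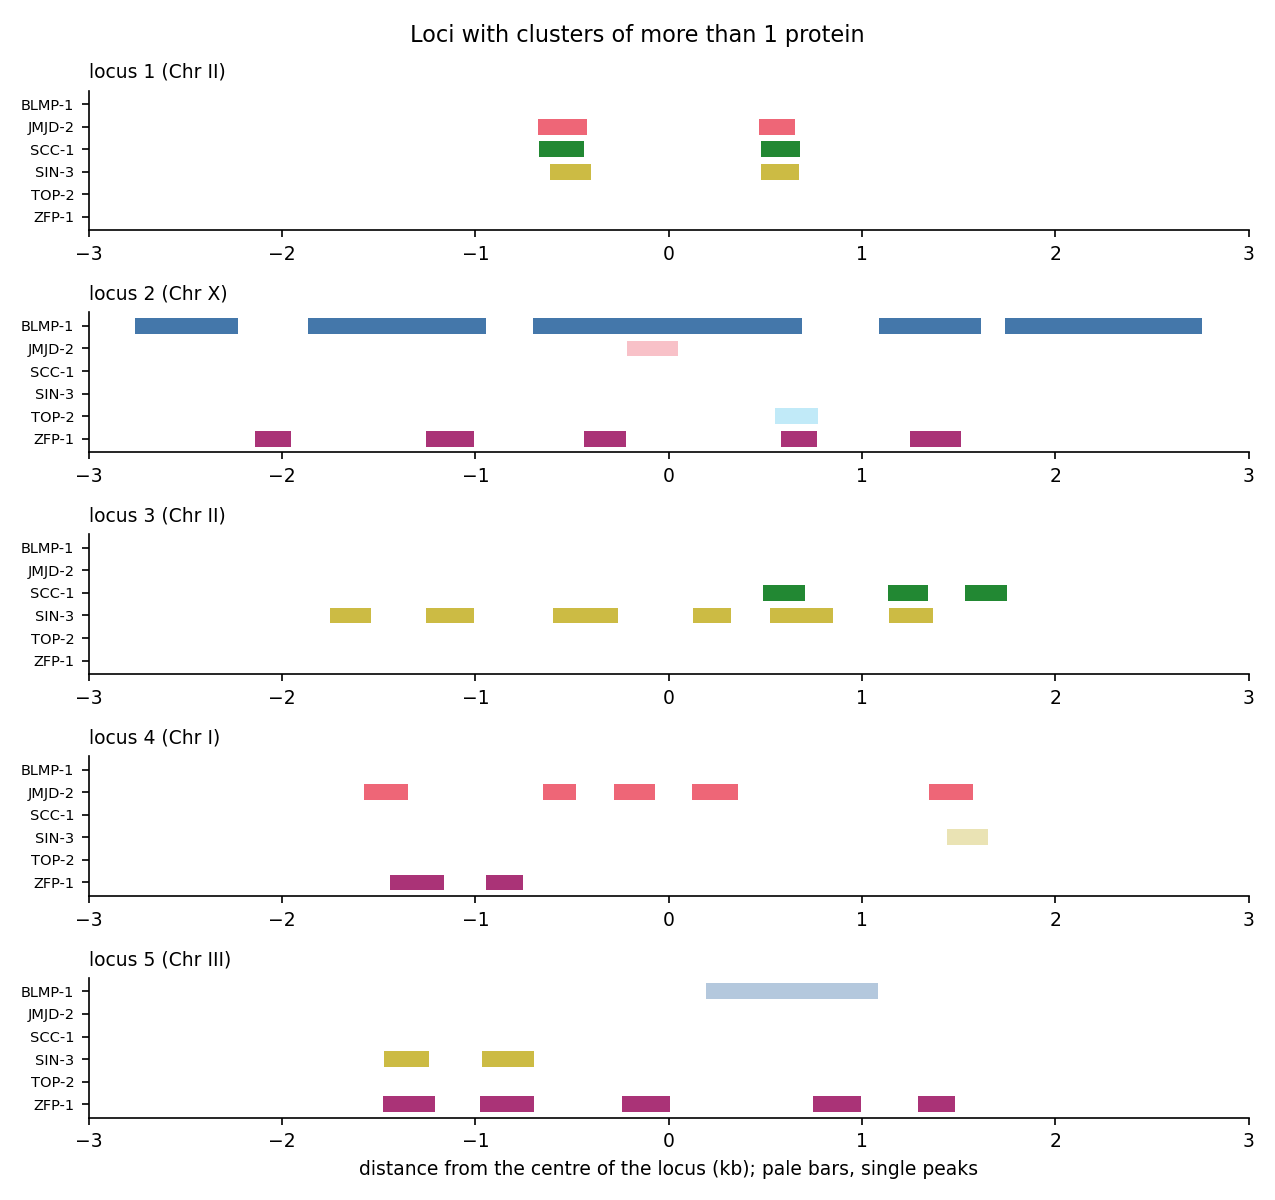
The locus with clusters of 3 proteins (locus 1) and, of the 23 with clusters of 2, those with the most clustered peaks (loci 2 to 5), each centered (x axis, distance from the center of the locus in kb), with 1 line per protein and bars at the peaks, in full color for clustered and pale for single peaks. At locus 1 the peak pairs of SIN-3, SCC-1 and JMJD-2 coincide, at locus 2 BLMP-1 and ZFP-1 peaks run side by side, and at loci 3 to 5 only some peaks of the 2 chains overlap.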

How the data were processed

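Peaks of 6 proteins in wild-type L3 larvae were taken from 6 deposited lists of chromosome, start and end in ce10. Per the methods, the authors used YAPC to call peaks per replicate, except that BLMP-1 peaks came from MACS2, and kept those reproducible by IDR between the 2 replicates. BWA and MACS2 are named in the submitters' processing notes, and versions were not given in the sources used here. The lists carry no counts, so depth is unknown.

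Members, lists and tests were chosen with earlier results of these data known. Gaps were computed after sorting, and coordinates are printed counting from 1. Clusters, by their first peak, were compared with single peaks by two-sided Fisher's exact tests with Benjamini-Hochberg adjustment and a threshold of 0.05. Intervals are exact. The sites named were, in each list, the cluster with the most peaks, the longest cluster, the smallest gap and the gaps next to the limit, and over all lists the 5 loci with clusters of the most proteins, with ties settled by the number of clustered peaks and then by span. The TOP-2 clusters with even spacing, and the SIN-3 and SCC-1 clusters given as examples of close clusters, were named after their values were seen. No genes or sequences are given, since no ce10 annotation or genome was used here. Alternatives were other gap limits, midpoint distances, other units for a cluster, other criteria for sharing and subsets of peaks. Procedures were tested on simulated data. The tools were scipy 1.17.1, pandas 2.3.3 and numpy 2.4.6 in Python 3.11.15, with plots by matplotlib 3.10.9.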

Additional observations from a re-analysis of the deposited data

How the results depend on the processing

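Of 492 alternative values, 408 kept their direction and their side of the threshold or stayed within 1.5 times the reported count, 22 passed only under the alternative, 19 no longer passed, 8 counts moved further and 35 odds ratios changed sides of 1. Those 35 belong to comparisons that passed neither as reported nor under the alternative. Odds ratios of clusters over single peaks are given for the changed calls on any other protein (any) and on a clustered peak of another protein (clustered). With the last peak of a cluster, calls were lost for any BLMP-1 (0.572), SIN-3 (0.860) and ZFP-1 (1.07) and clustered SCC-1 (2.65). With every clustered peak as a unit, which treats peaks of a cluster as independent, any JMJD-2 (0.507), any TOP-2 (0.433) and clustered ZFP-1 (2.88) passed. With midpoints within 500 bp, any SCC-1 (0.553) and SIN-3 (0.776) were lost and clustered ZFP-1 (2.43) passed. With gaps under 500 bp, clustered SCC-1 (3.26) and SIN-3 (3.43) were lost, and clustered peaks numbered 74 for BLMP-1, 39 for JMJD-2, 72 for SCC-1 and 180 for ZFP-1. With gaps under 2000 bp, any ZFP-1 (1.30) was lost, clustered ZFP-1 (3.22) passed, and JMJD-2, SIN-3 and ZFP-1 had 106, 304 and 619 clustered peaks. With midpoints under 1000 bp apart, clustered SCC-1 (2.52) was lost and BLMP-1 had 62 clustered peaks. Any ZFP-1 was lost on autosomes alone (1.49), any BLMP-1 without peaks shared with 3 or more lists (0.470) and any SIN-3 with pairs only (0.617). The odds ratios that changed sides, with the list before its partner, were as follows. With the last peak they were 1.18 for JMJD-2 with ZFP-1, 3.35 for SCC-1 with TOP-2, 1.16 for SIN-3 with BLMP-1 and 0.857 for SIN-3 with JMJD-2. With every clustered peak they were 1.63 for BLMP-1 with TOP-2, 1.44 for SCC-1 with TOP-2, 0.874 for SIN-3 with JMJD-2, 1.43 for ZFP-1 with TOP-2 and 1.03 for clustered BLMP-1. With midpoints within 500 bp they were 2.15 for BLMP-1 with TOP-2 and 1.19 and 1.36 for ZFP-1 with JMJD-2 and TOP-2. With gaps under 500 bp they were 1.04 for SCC-1 with BLMP-1, 0.793 for SIN-3 with JMJD-2 and 1.81, 1.17 and 1.74 for ZFP-1 with JMJD-2, SIN-3 and TOP-2. With gaps under 2000 bp they were 1.10 for clustered BLMP-1, 1.46 and 2.70 for SCC-1 with BLMP-1 and TOP-2, 0.923 for SIN-3 with JMJD-2 and 1.54 for ZFP-1 with TOP-2. With midpoints under 1000 bp apart they were 0.844 for SIN-3 with JMJD-2 and 1.08, 1.03 and 2.05 for ZFP-1 with JMJD-2, SIN-3 and TOP-2. On autosomes alone they were 1.32 for clustered TOP-2 and 1.03 for ZFP-1 with JMJD-2. Without peaks shared with 3 or more lists they were 1.10 for JMJD-2 with ZFP-1 and 1.18, 1.16 and 1.01 for ZFP-1 with JMJD-2, SIN-3 and TOP-2. With pairs only they were 1.04 for SCC-1 with BLMP-1, 1.31 for clustered TOP-2 and 1.18 for ZFP-1 with TOP-2. The causes were not tested, and fewer clusters enter some settings by construction. No paired analysis was possible because each list merges both replicates, and for that reason replicates were not left out in turn. A stricter peak threshold was not run, since the lists used here hold no score.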

Other observations

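ZFP-1 clusters with a midpoint distance between 650 and 750 bp, the window in which TOP-2 distances gathered, numbered 16. Of these, 15 had a peak of another protein, compared with 87 of all 156 ZFP-1 clusters. The 16 were also larger, since 9 of them had 3 or more peaks, compared with 28 of all 156. More peaks give a cluster more chances to be shared, and size was not accounted for. The window was taken from the TOP-2 distances after they had been seen, and no test was made.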
